A study of Homo sapiens and Mus musculus with 20 samples.

Results

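Coding-exon regions far from starts are stretches of open chromatin whose strongest point lay inside protein-coding sequence, away from protein-coding transcript starts and gene ends. They were found in SW480 cells, an established human colorectal adenocarcinoma line, by ATAC-seq, which uses the transposase Tn5 to tag accessible DNA. Merging the peak intervals of 12 libraries gave 252173 regions. At least 2 libraries had a peak in 167303 of them. The summit with the highest fold enrichment lay in coding sequence of a protein-coding gene (GENCODE release 44, GRCh38) in 4032 of the latter, also more than 3 kb from the start of any protein-coding transcript in 2102, and also more than 1 kb from the end of any protein-coding gene in 1930. These 1930 regions lay in coding exons of 1640 genes or gene pairs. The rule used position and the presence of a peak, and not the response to treatment.

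The 12 libraries came from 2 experiments with different label dates and separate untreated cells. In the first, SW480 cells received 10 mM sodium propionate (NaPr) or 0 mM, and in the second 1 mM sodium butyrate (NaBu) or 0 mM, each for 12 to 16 h, with 3 libraries per group. The doses differ, so values for the salts are given side by side and were not compared. The labels do not say that replicates were separate cultures, so p-values measure the spread between these libraries, which may be technical. Each deposited list ended near its 300000 strongest summits, so the weakest listed −log10 p ranged from 3.37 to 9.38, and a region without a peak is a region below its library's own limit. Promoters of 7 of 7 epithelial marker genes had a peak in all 12 libraries, as did 1 of 7 marker genes of other cell types (GFAP), while PECAM1 had one in 11 libraries, MYOD1 in 2 and the other 4 in none.

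Coding exons carry information beyond the protein code. Splice sites and splicing enhancers sit in and beside them, and transcription factors can bind them, so that some coding exons also act as enhancers of their own or a neighbouring gene. Gut bacteria make the short-chain fatty acids propionate and butyrate from dietary fibre. Both inhibit histone deacetylases and serve as donors for histone acylation, which loosens chromatin.

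The sequences around 9 of the summits are given as examples, each with a motif match explained below. They are not typical, as each of these motifs was found at 3.78% to 18.8% of coding-exon regions. Each run below is 121 bases of GRCh38 centred on the summit, read 5′ to 3′ on the coding strand of its gene, with coding bases in capitals and intron bases in lower case. The first 5 rose with at least 1 of the salts and hold a match to AP-1, the binding letters of FOS and JUN proteins (TGACTCA, or TGAGTCA on the other strand). VWF lies at chr12:6044242-6044362 on the minus strand, PALM2AKAP2 at chr9:110015955-110016075 on the plus strand, FIGNL1 at chr7:50446632-50446752 on the minus strand, RBMS1 at chr2:160278542-160278662 on the minus strand and CRK at chr17:1422992-1423112 on the minus strand.
VWF: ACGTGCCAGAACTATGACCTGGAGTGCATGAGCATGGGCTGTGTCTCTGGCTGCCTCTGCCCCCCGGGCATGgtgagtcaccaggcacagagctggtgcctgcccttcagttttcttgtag
PALM2AKAP2: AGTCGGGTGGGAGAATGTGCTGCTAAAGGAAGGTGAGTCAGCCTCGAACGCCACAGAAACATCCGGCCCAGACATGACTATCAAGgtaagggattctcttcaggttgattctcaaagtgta
FIGNL1: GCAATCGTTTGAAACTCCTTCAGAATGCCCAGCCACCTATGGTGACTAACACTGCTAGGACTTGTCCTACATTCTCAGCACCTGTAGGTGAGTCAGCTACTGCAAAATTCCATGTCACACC
RBMS1: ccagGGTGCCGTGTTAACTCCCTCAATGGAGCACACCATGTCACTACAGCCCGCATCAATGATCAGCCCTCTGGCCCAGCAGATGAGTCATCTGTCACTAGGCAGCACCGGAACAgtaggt
CRK: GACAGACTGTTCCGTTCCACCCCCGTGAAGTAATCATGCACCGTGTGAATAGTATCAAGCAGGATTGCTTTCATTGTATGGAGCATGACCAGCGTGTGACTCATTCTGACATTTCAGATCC

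In VWF the match starts at the second intron base, so that it overlaps the donor splice site of exon 18. In the other 4 it lies wholly in coding bases. The next 2 fell with NaPr and hold a GC box (GGGCGG or its reverse complement), the letters read by SP and KLF zinc finger factors. PIP5K1C lies at chr19:3643188-3643308 on the minus strand, with the GC box in the intron, and TCF7L1 at chr2:85304241-85304361 on the plus strand, with the GC box in coding bases.
PIP5K1C: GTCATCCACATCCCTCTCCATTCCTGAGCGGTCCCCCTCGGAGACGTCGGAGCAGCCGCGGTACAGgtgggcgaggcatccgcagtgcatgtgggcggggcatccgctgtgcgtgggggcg
TCF7L1: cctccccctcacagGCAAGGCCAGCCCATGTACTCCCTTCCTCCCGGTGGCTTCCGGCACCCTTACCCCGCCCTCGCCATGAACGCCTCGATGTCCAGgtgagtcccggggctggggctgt

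The last 2 were open in all 12 libraries and hold a match to the motif of CTCF, the factor that anchors chromatin loops, inside the coding bases. AHSG lies at chr3:186617209-186617329 and HDAC9 at chr7:18666299-18666419, both on the plus strand.
AHSG: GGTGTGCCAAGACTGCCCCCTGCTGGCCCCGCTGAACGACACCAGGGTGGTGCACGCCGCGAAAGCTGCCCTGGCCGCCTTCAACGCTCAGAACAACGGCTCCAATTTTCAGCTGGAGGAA
HDAC9: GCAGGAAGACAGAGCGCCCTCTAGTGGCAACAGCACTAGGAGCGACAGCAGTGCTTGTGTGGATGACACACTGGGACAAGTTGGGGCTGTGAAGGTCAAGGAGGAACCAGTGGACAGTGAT

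Coding sequence held more of these regions per base than introns did. Within the same distance limits, 23.1 Mb of coding sequence held 83.6 regions per Mb, whereas 1077 Mb of intron held 55945 regions, or 51.9 per Mb. The eligible coding sequence was also richer in G and C (50.1%) than the introns (40.8%). The density followed exon length without a steady trend. It was 78.0 per Mb in exons below 150 bases, 93.1 in exons of 150 to below 300 bases, 97.8 in exons of 300 to below 1000 bases and 65.3 in exons of 1000 bases or more. For regions with a peak in all 12 libraries it was 21.3, 26.4, 21.9 and 9.94 per Mb, lowest again in the longest exons. The median coding exon under a summit was 177 bases long, and the median of the 176354 eligible exons was 116 bases. The former is taken over summits and the latter over exons, and a longer exon offers more bases to a summit. These medians therefore cannot tell whether summits favour long exons. From the shortest to the longest class, exons held 38.9%, 33.0%, 12.8% and 15.2% of eligible coding bases. They held 36.3%, 36.8%, 15.0% and 11.9% of the regions. These densities and shares are descriptions without a test.

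**Figure D1:**
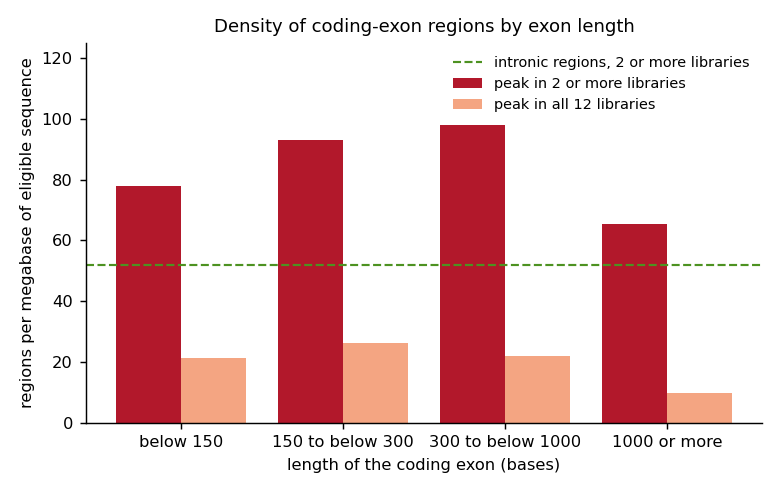
Bars give coding-exon regions per megabase of eligible coding sequence (y axis, from 0) by the length of the coding exon in bases (x axis), dark for regions with a peak in 2 or more of 12 libraries and light for a peak in all 12, and the dashed line gives the intronic density. All 4 dark bars (65.3 to 97.8 per Mb) stand above the intronic line at 51.9, and both kinds of bar are lowest in exons of 1000 bases or more.

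Most regions were wider than their exon. The median width was 572.5 bases (73 to 2333), a median of 40.6% of a region was coding, and 229 regions were wholly coding. The median distance to the nearest protein-coding start was 14210.5 bases, with quartiles of 7155 and 30294.8. Among the 1818 regions whose summit lay in a canonical transcript, the median place was exon 8 of 15, 275 lay in the last exon and 141 in exon 1 or 2. Starts of transcripts annotated as other than protein-coding (such as retained introns) were not used by the rule, and 681 regions (35.3%) lay within 3 kb of such a start of a protein-coding gene, 412 of them within 1 kb. Starts of genes that are not protein-coding were not used either, and 67 regions (3.47%) lay within 1 kb of one. At the distance limit itself, the 165 coding-exon regions between 2 and 3 kb from a start, just outside, had a peak in a median of 8 libraries, and the 139 between 3 and 4 kb, just inside, in a median of 7.

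Of the 1640 genes, 1418 held 1 region, 178 held 2 and 44 held 3 or more. ZAN, which encodes the sperm protein zonadhesin, held 9 regions, the mucin genes MUC12 and MUC16 held 6 each, and RYR1 (the muscle calcium release channel), LRP1 (an endocytic receptor), NEB (nebulin of the thin filament) and FBN3 (a fibrillin) held 5 each. MUC12 had 5, 6 and 3 of its regions as peaks in the untreated and 4, 3 and 1 in the treated libraries of the NaPr experiment, and none in any of the 6 libraries of the NaBu experiment. LRP1 by contrast had 3 to 5 of its 5 regions in every library. FBN3 had 1 or 2 in the NaPr experiment and 3 to 5 in the NaBu experiment. Mucin and zonadhesin exons are repetitive, and their reads may be shared with near-identical copies. By chromosome, 19 held 178 regions, 1 held 173 and 7 held 163.

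Base composition and motif letters around the summits are given as a description, without a test. In the 200 bases around the summit the median GC content was 57.5%, against 50% at intronic regions and 51.5% at all regions. The ratio of observed to expected CpG had a median of 0.346 at coding exons, 0.193 at introns and 0.224 over all, and it was above 0.6 at 17.0%, 2.92% and 12.2% of them. Motif letters were searched on both strands of these 200 bases. AP-1 letters were found at 9.95% of coding-exon regions, 17.7% of intronic and 15.3% of all regions. The TEAD letters (GGAATG), read by the effectors of YAP, were found at 12.8%, 17.3% and 15.9%, and the GATA letters (AGATAA) at 4.25%, 8.86% and 7.83%. The GC box went the other way, at 18.8%, 8.02% and 14.1%, as did the ETS letters (CCGGAAG), at 3.32%, 1.15% and 2.35%. CTCF was nearly even, at 3.78%, 3.31% and 3.25%, and so were the letters of HNF4 (CAAAGTCCA), at 0.881%, 0.606% and 0.577%, and those of TCF (ATCAAAG), at 5.54%, 5.28% and 4.65%. A match is a description of letters and not of binding.

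The donor splice site itself can spell AP-1, because introns often open with GTGAGT. Of the 192 coding-exon regions with AP-1 letters, 114 had them wholly inside coding sequence, 77 wholly outside and 1 in both places. In 38 of the 192 (19.8%) the letters TGAGTCA started at the second base of an intron. Besides VWF these included PGK1, SLC9A4 (a sodium and proton exchanger), PAPPA (a protease that cuts IGF-binding proteins) and CREB3L2 (a transcription factor of the secretory pathway), which rose with NaBu, and SLC45A3 and GALNS (a lysosomal sulfatase), which fell. Of the 38, 1 rose with NaPr and none fell, with 30 tested and not called, and 5 rose with NaBu and 2 fell, with 25 tested and not called. Over all tested regions 4.54% rose and 3.97% fell with NaPr, and 19.7% rose and 17.2% fell with NaBu, so these few calls are no result about the donor sites. These 7 genes were picked after their values were seen.

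A peak was present in exactly 2 libraries at 413 coding-exon regions (21.4%, against 17.2% of intronic and 15.8% of all regions), in 3 to 6 at 685, in 7 to 11 at 340 and in all 12 at 492. Those in all 12 are 25.5% of them, against 24.0% of intronic and 30.3% of all regions. The median fold enrichment at the highest summit was 6.40, against 7.23 at introns and 7.39 over all. The 492 regions open in all 12 libraries lay in 473 genes, with a median width of 994 bases, a median GC content of 60% and a median highest fold of 14.3. Among them 8.74% held a CTCF match and 27.2% a GC box, against 7.83% and 12.4% of the 13430 intronic regions open in all 12, and 11.8% held AP-1 letters against 22.2%.

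For each library, every region tested in its experiment was given a percentile rank by its highest −log10 p, with 0 for no peak and values near 100 for the strongest. Regions without a peak still took up ranks, so even a weak peak ranked well above 0. A peak of 8 tags in SLAMF7, for example, ranked at 38.7 in NaPr treated replicate 1. Gain or loss of a weak peak is therefore a large step in rank, and many of the largest changes below hold this step. The 8 coding-exon regions with the highest mean rank were in MUC3A (a membrane mucin), AHSG (fetuin-A of plasma), ATP6V0A4 (a subunit of the proton pump), ANO1 (a calcium-activated chloride channel), KLHL31 (a kelch protein), TFR2 (transferrin receptor 2), TNS2 (tensin 2) and CAND2 (a regulator of cullin ligases). All 8 ranked at 94.4 or above in each of the 12 libraries.

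ATP6V0A4 exon 11 of 22 (chr7:138752284-138753548) ranked at 99.6, 99.3 and 99.3 in the untreated and 99.5, 99.4 and 99.5 in the treated libraries of the NaPr experiment. In the NaBu experiment it ranked at 99.5, 99.2 and 99.4 untreated and 99.8, 99.7 and 99.8 treated. Between 204 and 733 tags overlapped at its summit, a pileup recovered from fold and −log10 p. AHSG exon 4 of 7 (chr3:186616888-186617762) ranked at 99.8, 99.7 and 99.9 untreated and at 99.9 in all 3 NaPr libraries, and at 95.2, 94.4 and 95.2 untreated and 94.7, 96.6 and 96.0 with NaBu. The ranks of both regions overlapped between treated and untreated libraries in the NaPr experiment. TFR2 exon 17 of 18 (chr7:100626357-100627252) was the only region of the 8 called in either experiment. It ranked at 97.1, 96.7 and 96.6 untreated and 98.6, 98.5 and 98.8 with NaBu, a rise of 1.79 points (SE 0.372, limma adjusted p = 0.00825). A transcript start not classed as protein-coding lay 805 bases from its summit, and such starts lay 162 bases from MUC3A and 218 bases from TNS2.

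Coding exons of DYNC1I1 (a dynein chain) and HDAC9 (a histone deacetylase) are known from limb development as enhancers of the neighbouring DLX and TWIST genes. Whether those elements are the exons measured here was not examined. The region in DYNC1I1 exon 15 of 17 (chr7:96075319-96076539) was open in all 12 libraries, at 96.5, 91.9 and 89.9 untreated and 93.4, 95.1 and 94.7 with NaPr, and at 92.6, 92.5 and 93.4 untreated and 94.2, 94.1 and 94.7 with NaBu. Treated and untreated ranks did not overlap in the NaBu experiment, but the difference of 1.5 points missed the threshold (SE 0.538, limma adjusted p = 0.0629), and that of 1.64 with NaPr did too (SE 1.46, limma adjusted p = 0.497). HDAC9 exon 12 of 26 (chr7:18666204-18666596) was weaker, at 51.9, 51.4 and 27.9 untreated and 49.7, 61.3 and 55.9 with NaPr, and at 25.2, 37.5 and 44.4 untreated and 42.5, 50.5 and 51.4 with NaBu. Its ranks overlapped in both experiments, and neither difference passed (limma adjusted p = 0.376 and 0.153).

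As a class, coding-exon regions made up a smaller share of the regions of every treated library than of any untreated library of the same experiment, in a design too small for the test to pass. In the NaPr experiment they were 1.06%, 1.13% and 1.2% of the regions of the untreated libraries and 0.934%, 0.970% and 0.995% of the treated ones (1.13% ± 0.0701 against 0.966% ± 0.0303, SD, n = 3 each, exact permutation p = 0.1, two-sided). In the NaBu experiment they were 0.986%, 0.969% and 0.951% untreated and 0.917%, 0.897% and 0.899% treated (0.969% ± 0.0179 against 0.904% ± 0.0110, SD, n = 3 each, exact permutation p = 0.1, two-sided). The groups did not overlap in either experiment, and 0.1 is the smallest p that 3 against 3 libraries can give. Set against introns of the same library, there were 40.2, 42.1 and 40.6 coding-exon regions per 1000 intronic regions without and 34.4, 34.1 and 33.3 with NaPr, and 32.4, 32.2 and 31.2 without and 29.5, 28.9 and 28.9 with NaBu. In counts, 1245, 1198 and 1199 coding-exon regions had a peak without and 1122, 1068 and 1014 with NaPr, whereas 955, 996 and 962 without and 993, 996 and 985 with NaBu overlapped. With NaBu, then, the coding-exon count stayed within the same range while the number of all regions rose from 96813, 102797 and 101197 to 108287, 111016 and 109560.

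Their level against introns had the same order. The median rank of coding-exon regions minus that of intronic regions was −0.479, 2.05 and 1.54 points in the untreated and −6.08, −4.97 and −6.17 points in the NaPr libraries, a difference of −6.78 (exact permutation p = 0.1, n = 3 each). It was 6.30, 3.32 and 5.54 points untreated and 1.16, −1.79 and 0 points with NaBu, a difference of −5.27 (exact permutation p = 0.1, n = 3 each). The groups did not overlap in either experiment. Coding-exon regions were richer in GC, so the same difference was taken within GC classes. Among regions below 50% GC the difference was −3.56 with NaPr, where the groups overlapped (exact permutation p = 0.3, n = 3 each), and −2.70 with NaBu (exact permutation p = 0.1, n = 3 each). Between 50% and 60% it was −4.59 and −3.83 (exact permutation p = 0.1 in both, n = 3 each). At 60% or more it was −6.47 with NaPr (exact permutation p = 0.1, n = 3 each) and −2.56 with NaBu, where the groups overlapped (exact permutation p = 0.2, n = 3 each). These 3 GC classes were chosen after seeing the data.

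**Figure D2:**
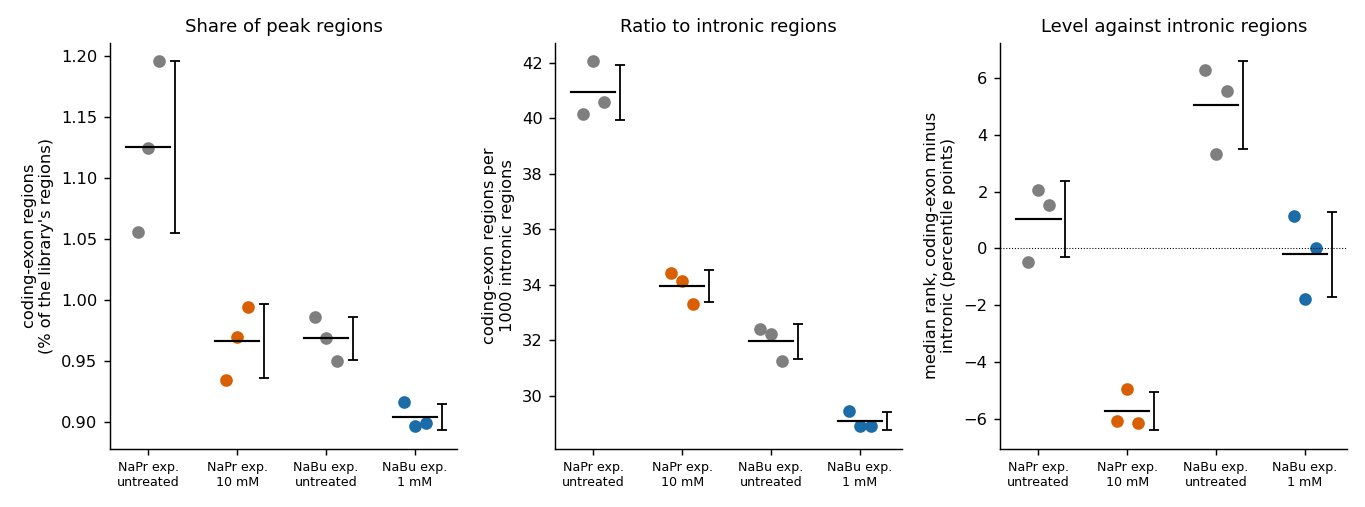
Each point is 1 library (grey untreated, orange 10 mM NaPr, blue 1 mM NaBu), with the group mean as a line and the SD as a bar beside it, n = 3 per group. The y axes give the share of a library's regions that are coding-exon regions (%), their number per 1000 intronic regions, and the median percentile rank of coding-exon minus intronic regions (points), and in all 3 panels the treated points lie below the untreated points of the same experiment.

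More coding-exon regions fell than rose with NaPr. Of 1930 regions, 1540 had a peak in at least 2 of the 6 libraries and were tested, 33 rose and 76 fell (7.08% called, limma on ranks, adjusted p below 0.05 over all 124067 tested regions). Over all tested regions 8.51% were called, 4.54% higher and 3.97% lower, and of 40017 intronic regions 1950 rose and 1247 fell. The median change was −4.02 points at coding exons, 0.54 at introns and 0.02 over all, and it was negative at 63.9% of coding-exon regions and 49.8% of all. Relative to the background pileup the direction turned, as among the 704 coding-exon regions with a peak in all 6 libraries 57 rose and 11 fell on that scale (8.10% and 1.56%), with a median of 0.13 on the log2 scale. The turn was shared by all 65178 regions with a peak in all 6 libraries, of which 13.5% rose and 1.10% fell with a median of 0.21. Scaled by the median pileup instead, 51 rose and 168 fell (7.24% and 23.9%), against 12.2% and 19.9% of all these regions. On both scales the coding-exon minus the all-region median was −0.08 on the log2 scale. The calls needed every library. Leaving out untreated replicate 1 left 8 higher and 21 lower (0.592% and 1.55%, against 2.05% and 1.16% of all tested regions). Leaving out untreated replicate 2 left 3 and 1 (0.220% and 0.0733%, against 0.602% and 0.188%). Leaving out untreated replicate 3 left 0 and 0, against 0.422% and 0.0889% of all. Leaving out any treated library left 0 and 0, and none of all tested regions was called either. The loss of calls was thus shared by all regions. In those last 4 fits 339 to 393 coding-exon regions had an unadjusted p below 0.05, against 397 with all libraries.

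By presence alone, 33 coding-exon regions had a peak in all 3 NaPr and no untreated library and 54 had the reverse, of 1649 with any peak in the experiment. These are 2.00% and 3.27%. Of all 202576 regions with a peak in this experiment, single-library regions included, 1.8% and 0.918% did so. Counted as the coding-exon regions were, over the 134984 that also had a peak in 2 or more of the 12 libraries, the shares were 2.71% and 1.38%. The list limits differed between the groups, at a −log10 p of 3.37, 4.98 and 5.33 untreated and 4.25, 4.66 and 6.53 treated, and their part in these counts was not tested.

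The 6 largest rises with NaPr were in TBC1D2 (a Rab GTPase-activating protein), VWF (the von Willebrand clotting factor), RHAG (an ammonium channel of red cells), APP (the amyloid precursor), LTBP3 (which holds latent TGF-beta in the matrix) and SLAMF7 (a receptor of immune cells). TBC1D2 exon 3 of 13 (chr9:98243885-98244416) had no peak in any untreated library and ranked at 69.9, 55.3 and 35.6 with NaPr, a rise of 53.60 points (SE 11.6, limma adjusted p = 0.0257). VWF exon 18 of 52 (chr12:6044198-6044370) ranked at 24.4, 0 and 26.5 untreated and 78.7, 66.9 and 62.6 treated, a rise of 52.42 points (SE 9.86, limma adjusted p = 0.0169), and its AP-1 letters at the splice donor are printed above. The treated libraries were all higher than the untreated ones at both regions. RHAG, APP, LTBP3 and SLAMF7 had no untreated peak in the NaPr experiment and treated ranks of 26.1 to 62.1. In the NaBu experiment RHAG and APP had a peak in every untreated library, at 56.6, 65.3 and 49.2 and at 47.4, 46.5 and 49.2. Both were called higher with NaBu (limma adjusted p = 0.00582 and 0.00491). Tags at these summits were few, such as 10, 13 and 22 at RHAG and 8, 12 and 22 at SLAMF7 in the treated libraries, while LTBP3 had 37, 70 and 107. The fold enrichment at LTBP3 was the lowest of the 6, at 2.06, 2.93 and 2.86, against 5.68, 6.16 and 8.31 at RHAG. A transcript start not classed as protein-coding lay 481 bases from the LTBP3 summit.

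The 6 largest falls were in PIP5K1C (a kinase that makes the membrane lipid PIP2), TTLL2 (of the tubulin polyglutamylase family), PLEKHG6, CHADL (a collagen-binding matrix protein), P2RX5 (an ATP-gated ion channel, sharing the exon with the readthrough gene P2RX5-TAX1BP3) and NPLOC4 (a cofactor of the segregase VCP). PIP5K1C exon 13 of 18 (chr19:3642938-3643436) ranked at 59.8, 58.9 and 58.4 untreated and had no treated peak, a fall of −59.05 points (SE 9.48, limma adjusted p = 0.0107). Its untreated pileups were 16, 33 and 34 tags, and no NaBu experiment library had a peak there. Within the NaPr experiment TTLL2, PLEKHG6, P2RX5 and NPLOC4 had the same pattern, with untreated ranks of 45.5 to 62.2 and no treated peak. CHADL exon 5 of 6 (chr22:41234927-41235583) ranked at 77.3, 78.9 and 78.9 untreated and at 0, 40.2 and 35.8 with NaPr, a fall of −53.03 points (SE 10.1, limma adjusted p = 0.0177). The groups did not overlap at any of the 12 regions, which the choice required. GC content was 56.5% to 68.5% at the 6 that fell and 47.5% to 67% at the 6 that rose.

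NaBu changed coding-exon regions in both directions. Of the 1190 tested, 187 rose and 249 fell (36.6% called, limma on ranks, adjusted p below 0.05 over all 123730 tested regions), against 36.9% of all tested regions, 19.7% higher and 17.2% lower. The total share called was close to the background. Of 39965 intronic regions 8826 rose and 6018 fell. The median change was −0.84 points at coding exons, 2.31 at introns and 0.70 over all. By presence, 46 of the 1325 coding-exon regions with any peak (3.47%) were found in all 3 treated but no untreated libraries and 52 (3.92%) in all 3 untreated but no treated ones. Of all 151213 regions with a peak in this experiment 5.24% and 3.04% did so, and of the 133935 that also had a peak in 2 or more of the 12 libraries 5.92% and 3.43%. The list limits were 9.38, 7.25 and 8.0 untreated and 8.54, 9.21 and 8.84 treated.

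The 6 largest rises with NaBu were in PALM2AKAP2 (an anchor of protein kinase A), PGK1 (a glycolytic kinase), LTBP3, KCNH4 (a voltage-gated potassium channel), NTRK3 (the neurotrophin-3 receptor) and PTPDC1 (a phosphatase of cilia). PALM2AKAP2 exon 7 of 11 (chr9:110015647-110016778), with AP-1 letters in its coding bases, had no untreated peak and ranked at 62.9, 69.5 and 51.4 with NaBu, a rise of 61.27 points (SE 6.16, limma adjusted p = 0.000621). In the NaPr experiment it ranked at 63.7, 44.7 and 51.7 untreated and 76.3, 73.7 and 52.6 treated, and was not called (limma adjusted p = 0.253). LTBP3 exon 4 of 28 (chr11:65553157-65553691) had no untreated peak in either experiment and ranked at 66.7, 57.7 and 50.6 with NaBu, a rise of 58.34 points (SE 5.94, limma adjusted p = 0.000642). It had 139, 127 and 111 tags at the summit, with a low fold enrichment of 3.88, 3.35 and 2.98. PGK1 exon 8 of 11 (chrX:78123072-78123871) ranked at 38.0, 0 and 0 untreated and 73.2, 70.8 and 71.2 with NaBu, a rise of 59.08 points (SE 10.2, limma adjusted p = 0.00399). A non-protein-coding transcript of PGK1 starts 522 bases away, and PGK1 has near-identical copies elsewhere in the genome.

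The 6 largest falls were in ZAN, MYO1E (a single-headed myosin), SEMA3D (a semaphorin guidance factor), PELO (a ribosome rescue factor), MMD (a membrane protein of maturing monocytes) and HEG1 (an endothelial membrane protein). None of the 6 had a peak in any treated library. ZAN exon 31 of 48 (chr7:100773140-100774146) ranked at 73.7, 68.1 and 63.4 untreated, a fall of −68.39 points (SE 5.18, limma adjusted p = 0.000353). In the NaPr experiment it ranked at 27.1, 30.9 and 29.4 untreated and had no treated peak either, without passing the test (limma adjusted p = 0.0943). MYO1E exon 19 of 28 (chr15:59178061-59179040) ranked at 65.9, 65.1 and 71.3 untreated, a fall of −67.47 points (SE 4.92, limma adjusted p = 0.000334), with 73, 48 and 70 tags. PELO had the most tags of the 6, at 100, 116 and 109, but the lowest fold enrichment, at 3.58, 5.43 and 4.49. The summit in HEG1 lay 3 bases from the start of a transcript not classed as protein-coding.

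**Figure D3:**
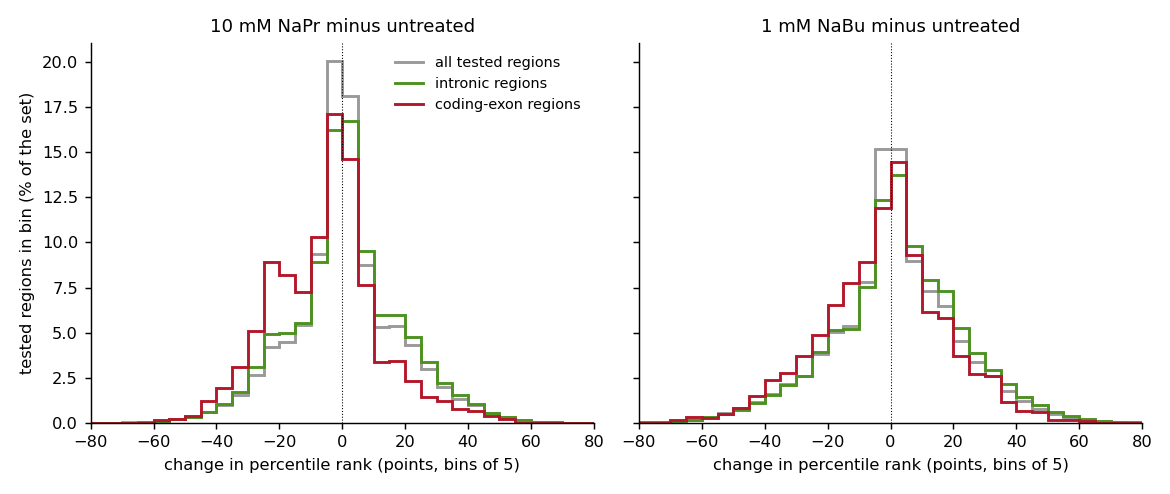
Lines give the share of tested regions (%, y axis) by the change in percentile rank, treated minus untreated, in bins of 5 points (x axis), for coding-exon regions (red), intronic regions (green) and all tested regions (grey). The red line lies above the others between −40 and −10 points and below them between 10 and 30 points in both experiments, with medians of −4.02 for 10 mM NaPr and −0.84 for 1 mM NaBu.

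Coding-exon regions tested in both experiments numbered 836. Of these 14 rose in both (1.67%) and 33 fell in both (3.95%), against 3.69% and 2.85% of all regions tested in both, and 2 were called in opposite directions, 1 each way. The 5 with the largest common rise were VWF, LTBP3, RBMS1 (a single-strand nucleic acid binding protein), ATAD2B (a bromodomain protein) and RP1 (a photoreceptor microtubule protein). RBMS1 exon 11 of 14 (chr2:160278475-160278676) had no untreated peak and ranked at 44.8, 56.9 and 34.1 with NaPr, and ranked at 30.2, 0 and 0 untreated and 40.4, 54.6 and 52.8 with NaBu (rises of 45.29 and 39.19 points, SE 10.7 and 9.34, limma adjusted p = 0.0339 and 0.0139). VWF had no untreated peak in the NaBu experiment and ranked at 57.3, 35.1 and 52.4 with NaBu, a rise of 48.25 points (SE 7.05, limma adjusted p = 0.00218).

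The 5 largest common falls were in PLEKHG6, LRRC41 (a ubiquitin ligase adaptor), DYSF (dysferlin of membrane repair), NOTCH2 (a Notch receptor) and PIGZ (a mannosyltransferase of the GPI anchor). DYSF exon 7 of 56 (chr2:71512553-71514117) ranked at 63.1, 58.9 and 61.2 untreated and 24.2, 35.7 and 32.1 with NaPr, and at 41.3, 51.9 and 39.7 untreated and 0 in all 3 libraries with NaBu (falls of −30.41 and −44.29 points, SE 7.51 and 5.87, limma adjusted p = 0.0389 and 0.00152). NOTCH2 exon 26 of 34 (chr1:119923613-119924264) ranked at 55.7, 34.9 and 44.6 untreated and 0 with NaPr, and at 50.9, 66.2 and 66.8 untreated and 26.4, 30.3 and 36.8 with NaBu (limma adjusted p = 0.0331 and 0.00712). The summit in NOTCH2 sat on the start of a transcript not classed as protein-coding. NOTCH2 has near-identical partial copies, and whether they hold this exon was not examined. In the NaBu experiment the calls at PLEKHG6, PIGZ, RBMS1, ATAD2B and RP1 were each lost without at least 1 single library, untreated or treated, while those at VWF, LTBP3, LRRC41, DYSF and NOTCH2 held without any single library. Of these latter, LRRC41 was not called when ranked by fold, and NOTCH2 was not called among the 50000 strongest intervals.

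Exons open in all 12 libraries cannot fall to or rise from a rank of 0. Of these 492 regions, 13 rose and 34 fell with NaPr (2.64% and 6.91%), with changes from −30.69 to 19.20 points, against 5.45% and 6.0% of all 50620 regions open in all 12. With NaBu 85 rose and 101 fell (17.3% and 20.5%), from −45.94 to 43.36 points, against 19.8% and 16.6%. The 3 largest non-overlapping changes in each direction and experiment were picked after the values were seen. SUFU, the brake of Hedgehog signalling, rose in both experiments at exon 5 of 12 (chr10:102593060-102593968), from 87.5, 82.2 and 86.7 to 93.2, 94.8 and 93.9 with NaPr (limma adjusted p = 0.0114) and from 37.4, 23.7 and 22.8 to 67, 74.1 and 72.9 with NaBu (limma adjusted p = 0.00126). FIGNL1, an ATPase of recombination repair, rose at exon 4 of 4 (chr7:50446436-50447017) from 88.6, 84.5 and 87.8 to 95.8 in all 3 NaPr libraries (limma adjusted p = 0.00545) and from 53.4, 52.4 and 52.7 to 75.5, 77.5 and 79.9 with NaBu (limma adjusted p = 0.000812). Its summit lay 3003 bases from a protein-coding start, just inside the limit. CRK, an adaptor of tyrosine kinase signalling, rose from 59.4, 65.3 and 56 to 79.4, 82.2 and 76.8 with NaPr (limma adjusted p = 0.0147) and from 43.3, 21.4 and 24.9 to 56.6, 73.4 and 62.3 with NaBu (limma adjusted p = 0.00923). KPTN, of the complex that restrains mTORC1, was called only with NaBu, from 29.0, 33.3 and 26.9 to 71.2, 67.4 and 73.4 (limma adjusted p = 0.000716), and EXOC3L4 only with NaPr, from 82.3, 80.8 and 82.5 to 93.7, 91.0 and 89.1 (limma adjusted p = 0.00834). Whether the experiments differ at these was not tested.

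Among the falls, EPS8L2, an actin regulator, went from 87.6, 91.6 and 89.1 to 68.1, 72.9 and 76.7 with NaPr (limma adjusted p = 0.00666) and from 87.5, 80.3 and 86.9 to 59.6, 43.5 and 42.3 with NaBu (limma adjusted p = 0.00172) at exon 19 of 21 (chr11:725913-726795). TCF7L1, a TCF repressor of WNT target genes, fell at exon 7 of 12 (chr2:85303915-85304613) from 79.2, 67 and 71.8 to 48.8, 52.3 and 47.1 with NaPr (limma adjusted p = 0.0245) and from 61.3, 52.0 and 59.1 to 27.7, 19.7 and 32.6 with NaBu (limma adjusted p = 0.00473). RTEL1, a telomere helicase whose exon is shared with the readthrough gene RTEL1-TNFRSF6B, fell from 81.8, 81.6 and 79.5 to 51.8, 70.9 and 59.3 with NaPr (limma adjusted p = 0.0272) and from 79.8, 79.6 and 78.6 to 56.2, 52.5 and 38.0 with NaBu (limma adjusted p = 0.003). FRMD1, a FERM domain protein, had the largest fall with NaBu, from 94.5, 93.9 and 95.5 to 46.9, 43.3 and 55.8 at exon 8 of 11 (chr6:168060483-168062540), or 356, 224 and 299 tags to 44, 47 and 57 (−45.94 points, SE 3.31, limma adjusted p = 0.000329). In the NaPr experiment the same region ranked at 63.1, 60.8 and 62.0 untreated and 63.5, 58.9 and 63.6 treated, which overlapped. CES5A, a carboxylesterase, fell with NaBu from 78.4, 81.1 and 82.2 to 43.9, 51.6 and 38.0 (limma adjusted p = 0.000898), and CNTFR, a cytokine receptor chain, fell with NaPr from 77.4, 81.7 and 80.5 to 57.9, 50.8 and 49.4 (limma adjusted p = 0.00725). Transcript starts not classed as protein-coding lay 154 bases from the EPS8L2 summit, 305 from EXOC3L4, 908 from TCF7L1 and 3 from RTEL1.

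**Figure D4:**
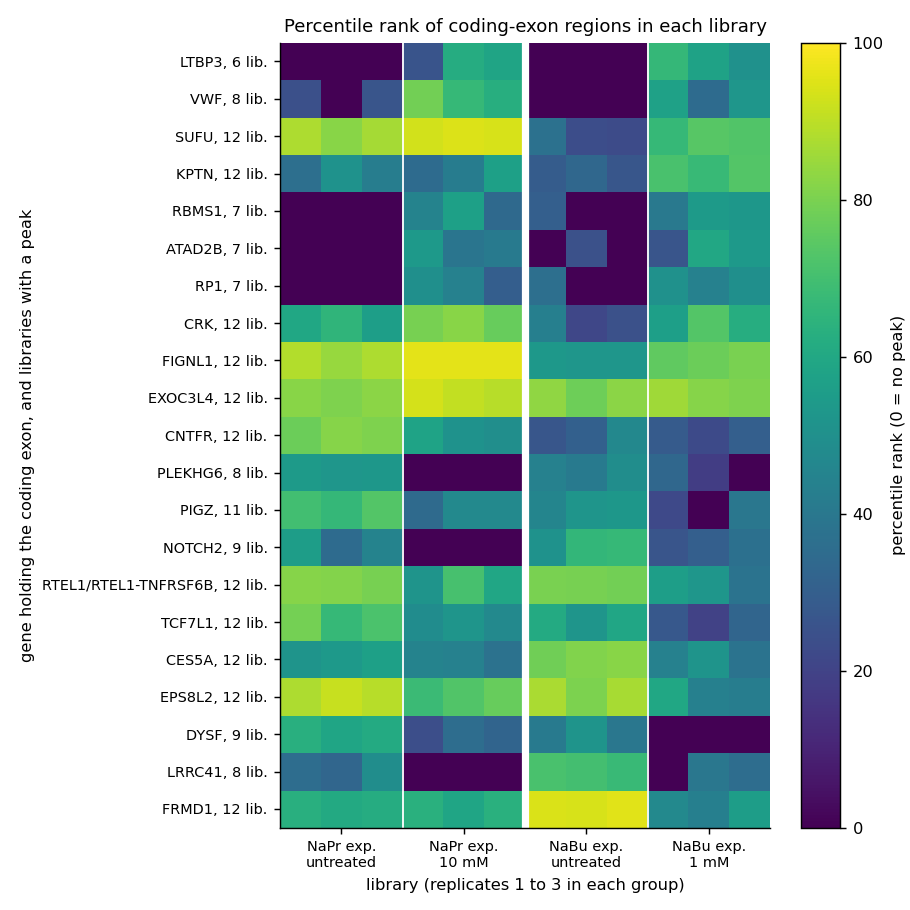
Each row is 1 coding-exon region, labelled with its gene and the number of libraries with a peak, and each column 1 library, with colour giving the percentile rank from 0 (no peak) to 100. Rows are ordered by the change with NaBu. They hold the 5 largest common calls in each direction. They also hold the 3 largest non-overlapping changes per direction and experiment among regions open in all 12 libraries. The contrast between untreated and treated columns is therefore a result of the choice.

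Motif letters differed between regions that rose and fell, given here without a test. AP-1 letters were found at 15 of the 33 regions that rose with NaPr (45.5%), at 9.43% of those not called and at 5 of the 76 that fell (6.58%). With NaBu the shares were 17.1% of the 187 that rose, 13.3% of those not called and 6.43% of the 249 that fell. Intronic regions had the same order, with 33.1%, 18.2% and 8.74% for NaPr and 24.0%, 18.4% and 15.0% for NaBu. The GC box was found at 12.1% of those that rose with NaPr, 18.6% of those not called and 36.8% of those that fell, and at 20.3%, 18.7% and 28.1% for NaBu. Intronic regions again had their highest share among those that fell, with 6.41%, 8.72% and 18.4% for NaPr and 8.55%, 8.13% and 633 of 6018 for NaBu. CTCF matches were at 0 of 33, 4.54% and 5.26% for NaPr, and at 4.81%, 5.97% and 1.2% for NaBu.

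**Figure D5:**
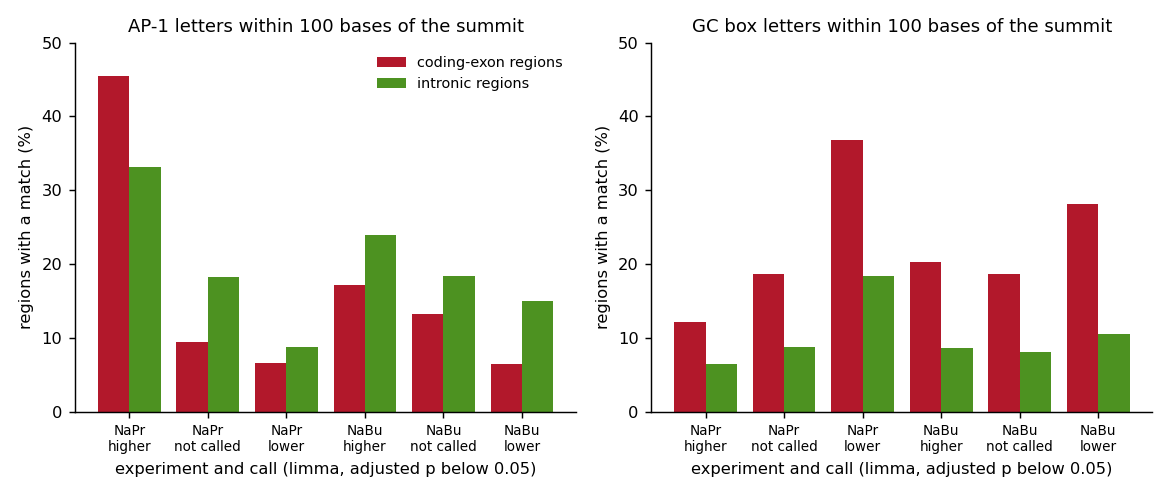
Bars give the share of regions (%, y axis from 0) with AP-1 or GC box letters in the 200 bases around the summit, by experiment and limma call (x axis), red for coding-exon and green for intronic regions. AP-1 is most frequent among regions that rose with NaPr (45.5% in coding exons, 33.1% in introns), and the GC box among regions that fell, in coding exons (36.8% with NaPr, 28.1% with NaBu) and in introns (18.4% with NaPr).

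Calls also differed by GC content. Of the coding-exon regions with 60% GC or more, 6 rose and 56 fell of 716 tested with NaPr, and 55 rose and 128 fell of 467 with NaBu. Below 50% GC, 14 rose and 4 fell of 309 with NaPr, and 61 rose and 46 fell of 356 with NaBu. These are 4.53% and 1.29%, and 17.1% and 12.9%, against 5.90% and 1.98%, and 20.7% and 14.5%, of all regions below 50% GC. Over all regions at 60% or more, 2.11% rose and 7.91% fell with NaPr and 12.4% rose and 25.9% fell with NaBu, against 0.838% and 7.82%, and 11.8% and 27.4%, at coding exons. The part of base composition in the coding-exon result was not tested beyond the 3 GC classes above. By exon length, from the shortest to the longest class, 3.96%, 5.47%, 6.61% and 3.98% of tested coding-exon regions fell with NaPr. In the same order 20.2%, 18.1%, 28.8% and 25% fell with NaBu. The shares that rose were 2.64%, 1.94%, 1.65% and 1.99% with NaPr and 17.4%, 14.4%, 12.3% and 18.5% with NaBu. Over all tested regions 4.54% rose and 3.97% fell with NaPr, and 19.7% rose and 17.2% fell with NaBu.

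Counts in gene families are to be read beside the share of all tested regions, 4.54% higher and 3.97% lower with NaPr and 19.7% higher and 17.2% lower with NaBu. Among 117 regions in 95 ion channel, pump and solute carrier genes, none rose and 5 fell of 94 tested with NaPr (median −4.04 points), and 11 rose and 12 fell of 69 with NaBu (median 0.26). KCNH4 and SLC44A4 (a choline carrier) rose with NaBu, the latter from no untreated peak to 49.3, 40.5 and 33.5 (41.09 points, limma adjusted p = 0.00244), and the potassium channel KCNH3 fell from 42.7, 36.4 and 47.3 to 16.8, 0 and 0 (limma adjusted p = 0.00574). Of 52 regions in C2H2 zinc finger genes, the largest family of DNA-binding repressors, 2 rose and 2 fell of 46 with NaPr and 4 rose and 3 fell of 21 with NaBu. ZNF285 exon 4 of 4 had no untreated peak and ranked at 42.5, 40.1 and 55.0 with NaBu, a rise of 45.88 points (limma adjusted p = 0.00156), and ZNF418 rose with NaPr from no peak to 53.1, 27.6 and 42.8 (limma adjusted p = 0.0482). ZNF280C fell with NaBu from 40.2, 51.6 and 42.6 to no peak (limma adjusted p = 0.00134).

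In genes of WNT and TGF-beta signalling and colorectal cancer drivers, 25 regions in 19 genes, 1 rose and 3 fell of 19 with NaPr (median −13.98 points), and 2 rose and 7 fell of 17 with NaBu (median −12.19). LTBP3 and NOTCH2, described above, were among them with TCF7L1, as was BMP1, a protease of collagen and TGF-beta maturation, which fell with NaBu from 42.2, 55.2 and 50 to no peak (limma adjusted p = 0.000982). Lists this short allow no reading of their share against the background.

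Adhesion and cytoskeletal genes moved both ways. Of 22 regions in cadherin, laminin and integrin genes, 1 rose and none fell of 18 with NaPr, and 5 rose and 2 fell of 15 with NaBu. CDH16, a kidney cadherin, rose from no untreated peak in either experiment to 42.4, 30.8 and 47.8 with NaPr (limma adjusted p = 0.0437) and 20.5, 22.1 and 46.2 with NaBu (limma adjusted p = 0.0247), a call lost without any 1 of the untreated libraries. ITGA7, a laminin receptor chain, rose with NaBu from no peak to 45.8, 42.9 and 55.6 (limma adjusted p = 0.00109), and PCDH1, a protocadherin of epithelia, fell from 50.4, 61.3 and 53.7 to no peak (limma adjusted p = 0.000599). Of 49 regions in cytoskeletal linker and motor genes, none rose and 2 fell of 42 with NaPr, among them the linker PLEC from 44.4, 49.8 and 46.0 to no peak (limma adjusted p = 0.0241), and 4 rose and 5 fell of 25 with NaBu, among them MYO1E and DST (dystonin), from 56.6, 59.5 and 61.5 to 0, 0 and 22.1 (limma adjusted p = 0.0018). Of 9 collagen regions, 6 were tested in each experiment, none was called with NaPr, and COL25A1 rose and COL6A3, from 71.7, 72.1 and 76.5 to 58.3, 40.1 and 40.7, fell with NaBu (limma adjusted p = 0.0232 and 0.00717), as did another region of COL6A3. The COL25A1 call was lost without untreated replicate 3.

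Chromatin modifier genes held 24 regions, of which 1 rose and 1 fell of 20 with NaPr, and 2 rose and 2 fell of 15 with NaBu. HDAC5, a class IIa histone deacetylase, fell at exon 18 of 27 (chr17:44083511-44083908) from 88.8, 85.6 and 86.4 to 74.0, 79.9 and 79.1 with NaPr (−9.28 points, SE 1.92, limma adjusted p = 0.0228) and from 66.9, 66.7 and 70.7 to 44, 48.5 and 32.7 with NaBu (−26.37 points, SE 5.00, limma adjusted p = 0.00582). It was open in all 12 libraries, and its groups did not overlap in either experiment. CHD2, a chromatin remodeller, rose with NaPr from no peak to 44.8, 47.9 and 37.8 (limma adjusted p = 0.0316), and EHMT1, an H3 lysine methyltransferase, rose with NaBu from 0, 42.3 and 42.6 to 54.2, 67.8 and 72.6 (limma adjusted p = 0.0432), a call lost without untreated replicate 2 or any treated library. Among genes the study singled out from these samples, which is not independent evidence, 4 regions lay in MYO3B, SEMA3D and AHNAK2. Of these, 2 were tested with NaPr and 3 with NaBu, and 1 was called. It lay in SEMA3D exon 12 of 19 and fell with NaBu from 64.5, 64.8 and 63.4 to no peak (limma adjusted p = 0.000344). The paper named SEMA3D for a gain of accessibility with NaBu, the opposite direction. Its text does not place that site within the gene, so whether the sites are the same is unknown.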

How the data were processed

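SW480 ATAC-seq libraries (50000 cells each) were made with the Omni-ATAC protocol by the authors, who trimmed reads with cutadapt 1.9.1, aligned them to GRCh38.p13 with Bowtie2 2.3.1 and called peaks with MACS2 2.1.0 in each library, without pooling, per the labels and methods. The deposited lists (299022 to 299463 summit lines) give fold enrichment as a ratio, −log10 p and −log10 q, and a display score that was not used. Mouse CT26 files were not used here. The study called differential sites from reads, which were not analysed here, so counts of called regions are on another scale.

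Intervals of the 12 lists were merged where they overlapped by 1 bp or more, and annotated with GENCODE 44. Each region's highest −log10 p was turned into a percentile rank within its library over regions with a peak in 2 or more of the 6 libraries, with 0 for no peak. Ranks were fitted with limma 3.58.1 (R 4.3.3, trend, two-sided, no covariate), treated against untreated, with Benjamini-Hochberg adjustment over all tested regions and a threshold of 0.05. Pileups were solved from fold and −log10 p, and backgrounds were 0.936 to 3.03 tags. Depth in reads is unknown.

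Regions named were the 6 largest non-overlapping calls per direction, the 8 highest mean ranks, the 5 largest common calls per direction and up to 3 called regions per gene list, 1 per gene. Members and lists were chosen with earlier results of these data known. The result of 1 gene list is not reported here.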

Additional observations from a re-analysis of the deposited data

How the results depend on the processing

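The shares of coding-exon regions per library and their level against introns kept their direction in every alternative run (without 1 library the level shifted by −7.54 to −6.27 points with NaPr and −6.13 to −4.48 with NaBu, and the share by −0.194 to −0.124 and −0.0733 to −0.0554 percentage points), but 3 against 3 libraries cannot give an exact p below 0.1. Without 1 library the NaBu calls stayed within 1.5 times the full count (147 to 179 higher, 195 to 228 lower, median −1.43 to −0.64 points). The NaPr calls did not (0 to 8 higher, 0 to 21 lower, median −4.73 to −3.46). Calls over all tested regions dropped as well, to at most 2.05% higher and 1.16% lower. Of 32 named NaPr calls, 13, 3 and 0 held without untreated replicate 1, 2 or 3 and 0 without any treated replicate. Among 48 named NaBu calls, 41 to 45 held without 1 library. Ranking by fold kept 17 of the 32 and 40 of the 48, with LRRC41 and TFR2 among those lost with NaBu. The replicate block kept 2 and 47, and a peak in at least 1 library 15 and 44. Among the 50000 strongest intervals all 12 NaPr calls tested held. With NaBu 17 of 23 did, without CRK, EHMT1, KCNH4, NOTCH2, PALM2AKAP2 and PELO. With NaPr the background scaling kept 8 of 11, without DYSF, HDAC5 and RTEL1.

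Same-numbered treated and untreated libraries had small positive correlations (0.012, 0.012 and 0.046 with NaPr, 0.022, 0.0071 and 0.013 with NaBu). Each was the highest for its untreated library except NaPr replicate 2. Ranks were first centred within each group of 3, which holds such values near 0, so they cannot tell whether the numbers are pairs. The labels do not say so either, and the main fit did not take the numbers as pairs. With the replicate number as a block, 2 rose and 3 fell with NaPr (0.130% and 0.195%, all regions 0.364% and 0.226%). With NaBu 174 rose and 250 fell (14.6% and 21.0%, all regions 18.9% and 17.3%).

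With NaPr, ranking by fold gave 30 lower (1.95%, all regions 1.23%). The 50000 strongest intervals gave 31 higher and 70 lower (5.57% and 12.6%, all regions 9.39% and 9.61%) and a median of −1.88. By presence in these lists, 7 regions were treated-only and 22 untreated-only. The share over all regions was not taken for these lists, so these counts are no result about coding exons. A peak in every library gave a median of −2.26. A peak in at least 1 library gave 12 higher and 27 lower (0.728% and 1.64%, all regions 1.32% and 1.22%) and a median of −2.75. Scaling by the background pileup gave 57 higher, 11 lower and a median of 0.13 on the log2 scale (all regions 0.21), and scaling by its median 51 and 168. Limits of 10 kb from a start left 19 and 44 (1.98% and 4.57%). Limits of 3 kb from every transcript start of a protein-coding gene, chosen after seeing the data, left 20 and 48 (2.01% and 4.82%). Both are from fewer regions, and over all tested regions 4.54% rose and 3.97% fell. With NaBu, ranking by fold gave 121 higher (10.2%, all regions 13.3%) and a median of −2.56. The 50000 strongest intervals gave 99 and 122 (19.8% and 24.4%, all regions 22.1% and 20.7%). A peak in every library gave 119 and 158 (17.6% and 23.3%, all regions 20.4% and 19.8%). Limits of 10 kb from a start gave 120 and 143 (16.3% and 19.4%), and 3 kb from every transcript start 158 lower (20.5%). Over all tested regions 19.7% rose and 17.2% fell. The NaBu median of −0.84 shrank to −0.13, −0.20, −0.19 and −0.30 with the 50000 strongest intervals, 10 kb from a start, 3 kb from every transcript start and a peak in at least 1 library. The causes were not tested, except that stricter limits leave fewer regions.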
